A study of Arabidopsis thaliana with 4 samples.

Results

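The chloroplast ATP synthase makes ATP in the thylakoid membrane from the proton gradient that light-driven electron transport builds up. Its membrane part, CFo, conducts protons and turns a ring of proteins, and its stromal part, CF1, carries the catalytic sites. In Arabidopsis the plastid genome encodes 6 of its subunits, and the nucleus encodes the others. The plastid genes lie in a pair of operons. In the large operon atpI, atpH, atpF and atpA are transcribed in this order, behind the ribosomal protein gene rps2, and in the small operon atpB is followed by atpE. These 6 genes are described here. They were chosen by name, as plastid genes with a probe set that the platform annotation ties to that gene alone, and all 6 had exactly 1 such probe set, among 13350 genes measured in this way.

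The RNA came from whole Columbia seedlings at 14 days, grown unstressed on MS medium with a 16 h day and an 8 h night, and was read on 4 Affymetrix arrays. The control group, 2 arrays labelled WT, was untransformed, and the other group, 2 arrays labelled GST overexpression, is called 35S:OsGSTU4 here, for the constitutive promoter and the rice tau class glutathione S-transferase gene that the study describes. The study's text names a single homozygous transgenic line for the arrays, so the group stands for 1 line. The submitters count biological replicates, but 1 sentence of their design text names a GRX line, and the paper's methods give another photoperiod and replicate number. Each value is the authors' log2 signal of a probe set, the short oligonucleotides that together read 1 transcript, so a difference of 1 is a fold of 2 in signal. The RNA was labelled with a 3′-IVT kit, and whether it labels plastid RNA as it labels nuclear RNA was not tested. A positive difference means a higher mean under the label 35S:OsGSTU4 than under WT. For the plastid genes in the study's own list of changed genes this direction is opposite to the one printed there, so the groups are called by their labels throughout. Probes differ in how strongly they bind, so signals of different probe sets do not rank the amounts of their transcripts, and where they are set side by side they describe only brightness on the array.

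The arrays were alike in scale, with median log2 signals from 7.29 to 7.42, both labelled WT lying below both labelled 35S:OsGSTU4. Across probe sets the signals correlated at 0.901 between the WT arrays and at 0.909 between the 35S:OsGSTU4 arrays. Between arrays of different labels the correlations were 0.909, 0.902, 0.900 and 0.902, so arrays sharing a label were about as alike as arrays that did not. The tissue label was checked on shoot and root genes. RCA, the Rubisco activase gene of green tissue, lay between 14.40 and 14.87, and PYK10, a root β-glucosidase gene, between 13.20 and 13.50. Of the 4 shoot markers listed only RCA was measured, with a difference of 0.16 (standard error 0.27). Of the 9 root markers 2 were measured, and both were lower on each array labelled 35S:OsGSTU4, PYK10 by a difference of -0.23 (0.22) and the root hair expansin gene EXPA7 by -1.50 (0.90). EXPA7 read 7.11 and 7.17 against 6.79 and 4.50, so that most of its difference came from 35S:OsGSTU4 replicate 2. The 4 flower and the 4 seed markers had no probe set of their own. In whole seedlings fewer cells of a type and less RNA per cell cannot be told apart, and the part of tissue makeup in the values below was not tested. The gap between 3′ and 5′ control probe sets, which grows as labelled RNA becomes less complete, also moved with the labels. For actin it was 3.48 and 3.53 under WT against 4.07 and 3.76, and on another actin pair 1.31 and 1.27 against 1.93 and 1.57. For GAPDH it was 1.01 and 0.96 against 1.05 and 1.36, and on another GAPDH pair -0.20 and 0.10 against 0.36 and 0.13. All 4 pairs thus had both arrays labelled 35S:OsGSTU4 above both labelled WT, and their part in the results was not tested.

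As deposited, the 4 genes of the large operon had higher signals on both arrays labelled 35S:OsGSTU4, although atpI was lower relative to the other plastid genes, and the signals of atpB and atpE overlapped between the labels. Past the thresholds of the study, a 2-fold change or more at P up to 0.05, with P taken here from limma and not adjusted, 2 of the 6 genes rose, atpH and atpF, and none fell. Over all 22746 probe sets, 2.38% were higher past these thresholds and 2.34% lower, 4.72% in all. The study's own list of changed genes is far shorter than the calls made here and holds none of the 6. Both arrays labelled 35S:OsGSTU4 were above both labelled WT at 4 of the 6 genes, the whole large operon, and at 21.1% of all probe sets. The median difference over the 6 genes was 0.84 and over all probe sets 0.04. None of the 6 passed an adjusted p of 0.05, in limma or with the methods' t-test. No probe set at all passed it in limma, where the smallest adjusted p was 0.378 and 1317 probe sets had an unadjusted P under 0.05. All 6 genes, and 54% of all probe sets, had a higher mean in the arrays labelled 35S:OsGSTU4 as deposited, and the 6 genes also after quantile normalization and with arrays centred on nuclear genes, 5 of 6 with arrays centred on their medians, and 3 of 6 with arrays centred on the other plastid genes.

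**Figure D1:**
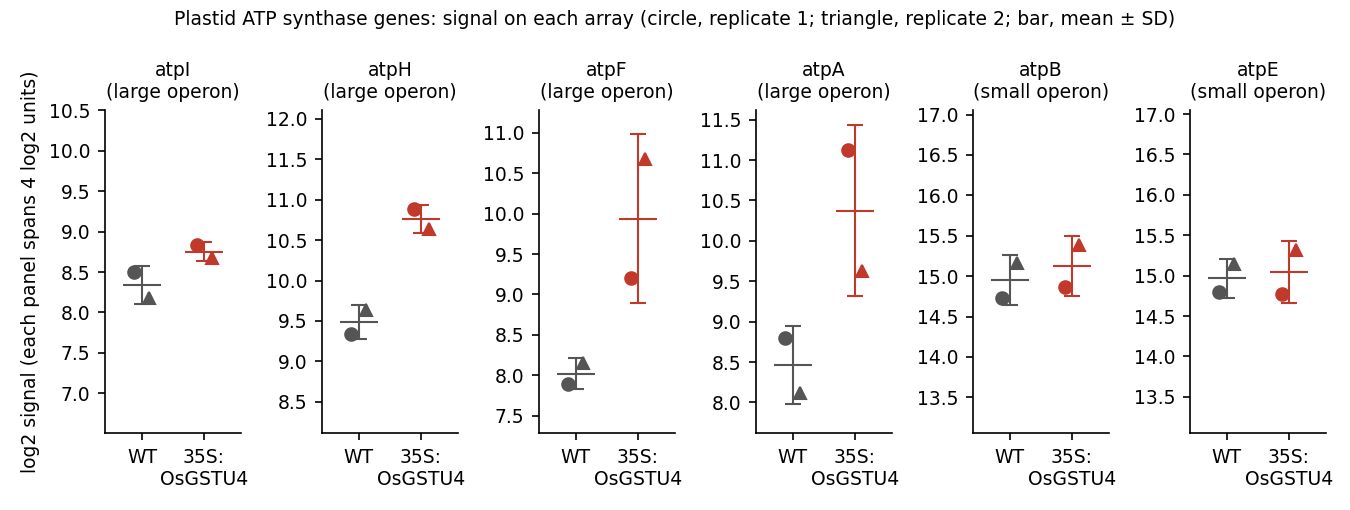
Log2 signal (vertical axis, arbitrary units, each panel spanning the same 4 log2 units at its own level) of the 6 plastid ATP synthase genes on each of the 4 arrays, by genotype label (horizontal axis), with circles for replicate 1, triangles for replicate 2 and bars for mean ± SD (n = 2). In the 4 panels of the large operon the red points of 35S:OsGSTU4, as deposited, lie above the grey points of WT, atpI by the least, and in the panels of atpB and atpE the points overlap.

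The membrane part was represented by atpI, atpH and atpF. The gene atpH encodes subunit c, which forms the rotating ring and binds the protons. Its log2 signal was 9.34 and 9.64 under WT, against 10.88 and 10.64 under 35S:OsGSTU4. The groups did not overlap, and the gap between them was larger than the spread within either. The means were 9.49 ± 0.21 and 10.76 ± 0.18 (SD, n = 2 each). The difference of 1.27 (standard error 0.26, 95% interval 0.49 to 2.05) is a fold of 2.41. It was past the thresholds of the study, with an adjusted p = 0.631 from limma. Without WT replicate 1 the difference was 1.12 and without 35S:OsGSTU4 replicate 1 it was 1.15, and the call was lost in both while the size changed little.

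The gene atpF encodes subunit b, a part of the peripheral stalk that holds CF1 in place, and it contains an intron. It read 7.89 and 8.16 under WT, against 9.20 and 10.68 under 35S:OsGSTU4. The groups did not overlap, but the arrays labelled 35S:OsGSTU4 differed from each other by 1.48, with replicate 2 the higher. The difference of 1.92 (standard error 0.61, interval 0.10 to 3.74) is a fold of 3.78. It was past the thresholds of the study, with an adjusted p = 0.856 from limma. Without 35S:OsGSTU4 replicate 2 the difference was 1.18, and without its replicate 1 it was 2.66, so the size rested on that pair of arrays. The call was lost without WT replicate 1, WT replicate 2 or 35S:OsGSTU4 replicate 2, and with the methods' t-test. The difference itself was 1.78 and 2.05 without the WT arrays in turn and the methods' test leaves it at 1.92, so in these settings the call was lost on P and not on size.

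The gene atpI encodes subunit a, which forms the path of the protons beside the ring. It had the smallest difference of the large operon. Its signal was 8.50 and 8.18 under WT, against 8.83 and 8.67 under 35S:OsGSTU4. The groups did not overlap, yet the gap between the nearest arrays was no larger than the spread within WT. The difference was 0.41 (standard error 0.26, interval -0.35 to 1.17), a fold of 1.33, with an adjusted p = 0.895 from limma. An increase to slightly more than a fold of 2 and a small decrease both lie within that interval.

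The catalytic part was represented by atpA, atpB and atpE. The gene atpA encodes subunit α, which alternates with subunit β in the head of CF1, and it is the last gene of the large operon. It read 8.80 and 8.12 under WT, against 11.12 and 9.62 under 35S:OsGSTU4. The groups did not overlap, and the arrays labelled 35S:OsGSTU4 differed by 1.50, here with replicate 1 the higher, opposite to atpF. The difference was 1.91 (standard error 0.66, interval -0.06 to 3.88), a fold of 3.76, as large as that of atpF. It narrowly missed the threshold on P, and its adjusted p = 0.864 from limma. It passed the thresholds with a variance that follows signal intensity, among probe sets above the median mean, and with a replicate block. Without 35S:OsGSTU4 replicate 2 the difference was 2.66 and passed, and without its replicate 1 it was 1.16 and did not.

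The gene atpB encodes subunit β, which carries most of each catalytic site. Its signal was 14.73 and 15.17 under WT, against 14.87 and 15.39 under 35S:OsGSTU4. The groups overlapped, and within both the replicate numbered 1 was the lower, by 0.44 and 0.52. The difference of 0.18 (standard error 0.34, interval -0.82 to 1.18) is a fold of 1.13, with an adjusted p = 0.940 from limma.

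The gene atpE encodes subunit ε, which sits on the central stalk and restrains ATP hydrolysis. Its signal was 14.80 and 15.14 under WT, against 14.78 and 15.32 under 35S:OsGSTU4. The lowest and the highest value both came from the arrays labelled 35S:OsGSTU4. The difference of 0.08 (standard error 0.33, interval -0.89 to 1.05) is a fold of 1.06, with an adjusted p = 0.975 from limma. The intervals of atpB and atpE include no difference, a decrease of nearly a fold of 2 and an increase slightly above it. Their sign was not stable, as leaving out WT replicate 1 gave -0.04 for atpB and -0.09 for atpE, and leaving out 35S:OsGSTU4 replicate 2 gave -0.08 and -0.19.

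Compared as operons, the mean difference was 1.38 over the 4 genes of the large operon, from 0.41 to 1.92, and 0.13 over both genes of the small operon. The gap between these means was 1.25. Within each array, the mean log2 signal of the large operon minus that of the small one was -6.13 and -6.63 under WT, against -4.81 and -5.45 under 35S:OsGSTU4. The distance was thus shorter on both arrays labelled 35S:OsGSTU4. Any constant added to an array cancels in this distance, so centring of the arrays does not move it. The gap of 1.25 was 1.23 after quantile normalization, and ran from 0.93 without 35S:OsGSTU4 replicate 1 to 1.57 without its replicate 2. It is measured against atpB and atpE, which lay 0.06 to 0.38 log2 below the brightest probe set of each array, and whether signals so near the top still follow the amount of RNA was not tested. With 2 arrays per group an exact permutation test cannot give a two-sided p below 0.333, and the gap was not tested. The 95% interval of atpI overlaps those of atpB and atpE almost wholly. Those of atpH (0.49 to 2.05), atpF (0.10 to 3.74) and atpA (-0.06 to 3.88) overlap them in part, so no interval of the large operon lies clear of the small one. Each interval is of a single gene, and all genes were read on the same 4 arrays. The overlap is therefore no test of one gene against another. The larger differences within the gap were those of atpH, atpF and atpA.

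The genes beside the operons were read for comparison, in the order of the RefSeq gene table. Before the large operon, rps2 differed by 0.69 (standard error 0.27) and rpoC2, which encodes a subunit of the plastid RNA polymerase, by 0.54 (0.30). Neither passed the thresholds, although both had arrays that did not overlap, rps2 at 10.51 and 10.67 against 11.08 and 11.47, and rpoC2 at 11.26 and 11.20 against 12.04 and 11.49. Their differences lay between those of atpI and atpH. Further upstream the differences were larger. There rpoC1 rose by 1.22 (0.30) past the thresholds (limma, adjusted p = 0.738), and rpoB differed by 1.07 (0.65) with arrays that overlapped. From rps2 along the direction of transcription the differences ran 0.69, 0.41, 1.27, 1.92 and 1.91, with standard errors that overlap between neighbours except from atpI to atpH. Beside the small operon, ndhC, which encodes a subunit of the NADH dehydrogenase-like complex, had 0.16 (0.28), near atpE and atpB. It was also bright, at a mean signal of 13.12. The plastid genes nearest to it in signal, below and above, were ccsA (13.10) with a difference of 0.03 and rpl16 (13.19) with 0.36. Whether its small difference goes with position or with brightness was not tested. Beyond ndhC, ndhK had 0.63 (0.39) and ndhJ 0.86 (0.26), neither past the thresholds. On the other side rbcL, the gene of the large subunit of Rubisco, which is transcribed away from atpB, rose by 1.03 (0.26) past the thresholds, at 10.62 and 10.28 against 11.54 and 11.41 (limma, adjusted p = 0.738). That call was lost at 0.86, 0.97 and 1.10 without WT replicate 2, 35S:OsGSTU4 replicate 1 or 35S:OsGSTU4 replicate 2. It was also lost at 0.95 and 0.96 with arrays centred on their medians or on nuclear genes, and at 0.13 with arrays centred on the other plastid genes.

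**Figure D2:**
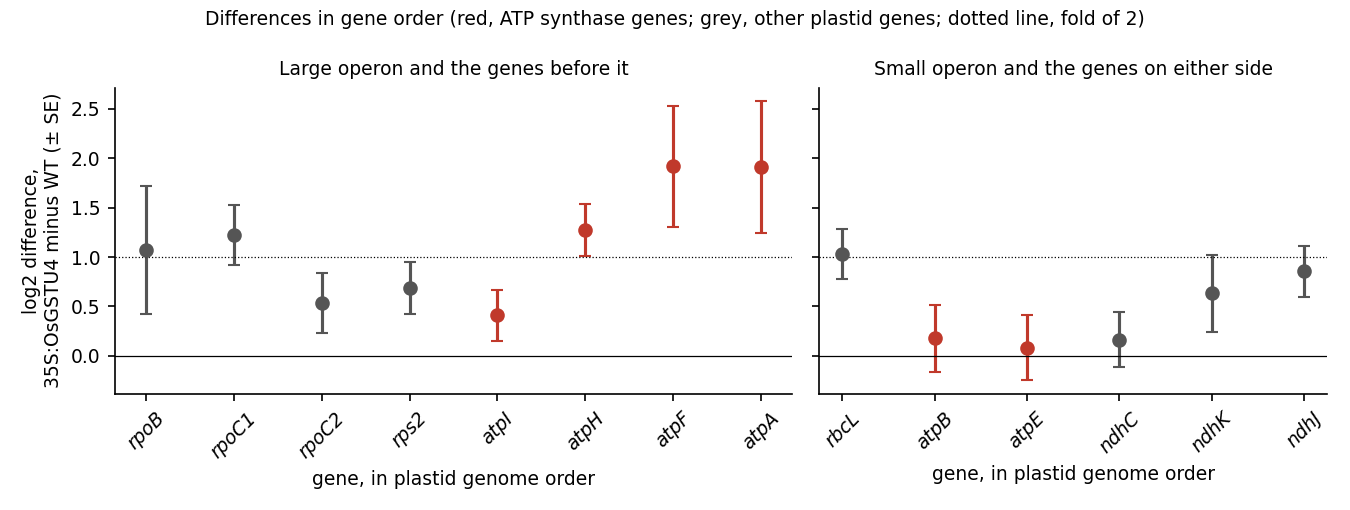
Log2 difference between arrays labelled 35S:OsGSTU4 and WT (vertical axis, point ± standard error from limma) for plastid protein genes in genome order (horizontal axis), with the ATP synthase genes in red and other genes in grey. The points of atpH, atpF and atpA lie at 1.27, 1.92 and 1.91, above the dotted line at a fold of 2, whereas atpI at 0.41, atpB at 0.18 and atpE at 0.08 lie below it, the last on the other side of 0 (-0.00) with arrays centred on their medians. Of the grey points rpoC1 at 1.22, rpoB at 1.07 and rbcL at 1.03 also lie above that line, and the others below it.

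The other plastid genes give the setting of these values. Of the 63 measured, all had a higher mean in the arrays labelled 35S:OsGSTU4 as deposited, with 62 of 63 after quantile normalization, 57 when arrays were centred on their medians or on nuclear genes and 32 when they were centred on these genes themselves, and 18 were past the thresholds. Their median difference was 0.93, beside 0.84 for the 6 ATP synthase genes, and their arrays stood apart at 43 of 63 genes (68.3%), beside 4 of 6 (66.7%). In these counts the ATP synthase genes were close to the plastid genes at large. With each array centred on those 63 genes, the median over all probe sets moved from 0.04 to -0.86, and the differences relative to the plastid genes were 1.02 for atpF, 1.01 for atpA and 0.37 for atpH, against -0.49 for atpI, -0.73 for atpB and -0.82 for atpE. None of these passed the thresholds.

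The operons also differed in brightness. Only 4 of the 22746 probe sets had a mean signal above that of atpB and 5 above that of atpE. Both lay at most 0.38 log2 below the brightest probe set of every array, and on 35S:OsGSTU4 replicate 2 atpB lay 0.06 below it. The 5 other plastid genes with a mean signal of 14 or more were psbM, psaB, rps3, rpl22 and rps4, with a median difference of 0.09, from 0.01 at rps4 to 0.66 at psbM. None passed the thresholds and none had arrays that stood apart. The 12 nuclear genes as bright had a median of 0.07. Within the range of mean signals of the large operon, 8.55 to 10.12, there were 6 other plastid genes, with a median of 1.21 and 3 past the thresholds, accD at 2.09, rpl20 at 1.82 and rps16 at 1.38. The other 3 were ndhD at 1.03, rps15 at 0.76 and ndhK at 0.63. The range of these 6 thus takes in atpH, atpF and atpA, while atpI lay below it. The 2460 nuclear genes in the same range had a median of 0.03, and 2 of them were higher past the thresholds and 1 lower.

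**Figure D3:**
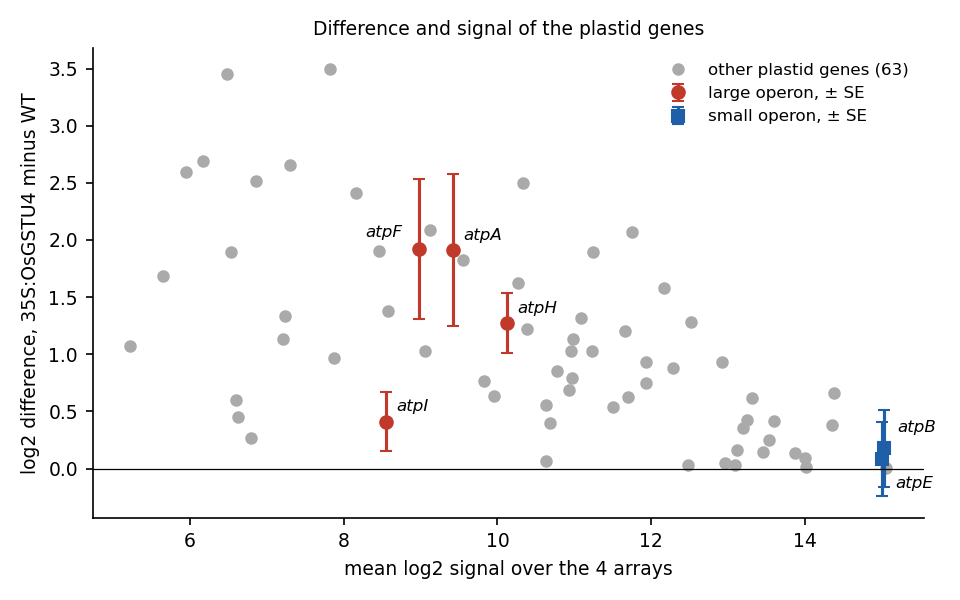
Log2 difference between arrays labelled 35S:OsGSTU4 and WT (vertical axis) against the mean log2 signal over the 4 arrays (horizontal axis) for the measured plastid genes, grey for the 63 others, red circles for the large operon and blue squares for the small operon, both with the standard error from limma. The small operon lies at the bright end beside rps4. There the 5 other plastid genes with a mean signal of 14 or more spread from 0.01 at rps4 to 0.66 at psbM. The large operon lies at middle signals, where the 6 other plastid genes in its range spread from 0.63 to 2.09, above atpI at 0.41.

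Of 4 nuclear genes of the enzyme 2 were measured, and neither passed the thresholds. ATPC1 encodes subunit γ, the rotating shaft on which thioredoxin acts, and read 13.37 and 13.82 against 13.67 and 13.89, a difference of 0.18 (standard error 0.29). Its paralogue ATPC2 read 8.40 and 8.85 against 7.93 and 8.63, a difference of -0.35 (0.39). In both the groups overlapped. ATPD and ATPG, the genes of subunits δ and b′, had no probe set of their own. Of 7 genes for factors that assemble the enzyme or process its plastid transcripts, 5 were measured, all higher as deposited but none past the thresholds, with a median of 0.33. The largest was AEF1 (AT3G22150), which edits the atpF transcript, at 0.60 (0.27), from 7.36 and 7.80 to 8.19 and 8.17. Next came AT2G18940, at 0.53 (0.23), from 8.05 and 8.15 to 8.73 and 8.53. Its counterpart in maize, PPR10, protects RNA between atpI and atpH. With arrays centred on the plastid genes all 5 were lower than those. Of 6 thioredoxin and thioredoxin reductase genes 3 were measured, TRXF2 at 0.32 (0.44), NTRC at 0.23 (0.25) and TRXM2 at 0.02 (0.26). TRXM2 turned negative with arrays centred on their medians or on nuclear genes, and all 3 with arrays centred on the plastid genes. None passed the thresholds.

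Of 9 genes for plastid sigma factors and phage-type RNA polymerases, which transcribe organelle genes, only RPOTMP (AT5G15700) was measured. It was dim and read 6.43 and 3.46 against 6.34 and 6.66, so its difference of 1.56 (standard error 1.16) rested on WT replicate 2, and it did not pass the thresholds. Of 18 genes of the mitochondrial ATP synthase, the related enzyme of respiration, 5 had a probe set, with 2 higher means, 3 lower and -0.06 as the median. The ends were AT2G19680, a subunit g gene, at 0.25 (0.22), and AT5G47030, the gene of subunit δ, at -0.21 (0.22), and none passed the thresholds. With arrays centred on the plastid genes all 5 were lower than those. The 6 mitochondrially encoded genes of that list had no probe set of their own.

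Genes with the most similar profile were sought among 5963 genes outside the set with a signal above the median, by the Euclidean distance between log2 values on the 4 arrays, each gene centred on its mean. In the mean profile of the large operon, opposite replicate gaps cancel. Replicate 1 minus replicate 2 of 35S:OsGSTU4 was -1.48 for atpF and 1.50 for atpA, so neither gene has that profile. For this mean profile the 5 nearest were rbcL at a distance of 0.38 log2, the intron maturase gene matK at 0.40, and the nuclear genes AT1G48650 at 0.46, AT3G56330 at 0.47 and AT1G29270 at 0.47. Of these rbcL and matK are plastid genes, and matK had a difference of 1.28. For the small operon the 5 nearest were all nuclear, TUB7, a β-tubulin gene, at 0.05, AT4G33490 at 0.05, AILP1 at 0.06, AT2G34460 at 0.06 and PSAE-1, which encodes a photosystem I subunit, at 0.06. Its mean difference of 0.13 lay near the median of 0.04 over all probe sets, against 1.38 for the large operon. The profiles were not scaled to a common size, so distances cannot be compared between the operons. PSAE-1 read 14.06 and 14.54 against 14.16 and 14.70, with the replicate numbered 1 the lower in both groups, as for atpB and atpE. The highest signal of each array also lay lower in replicate 1, at 15.11 and 15.52 under WT, against 15.15 and 15.45 under 35S:OsGSTU4. Over 4 arrays such likeness describes these arrays alone.

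**Figure D4:**
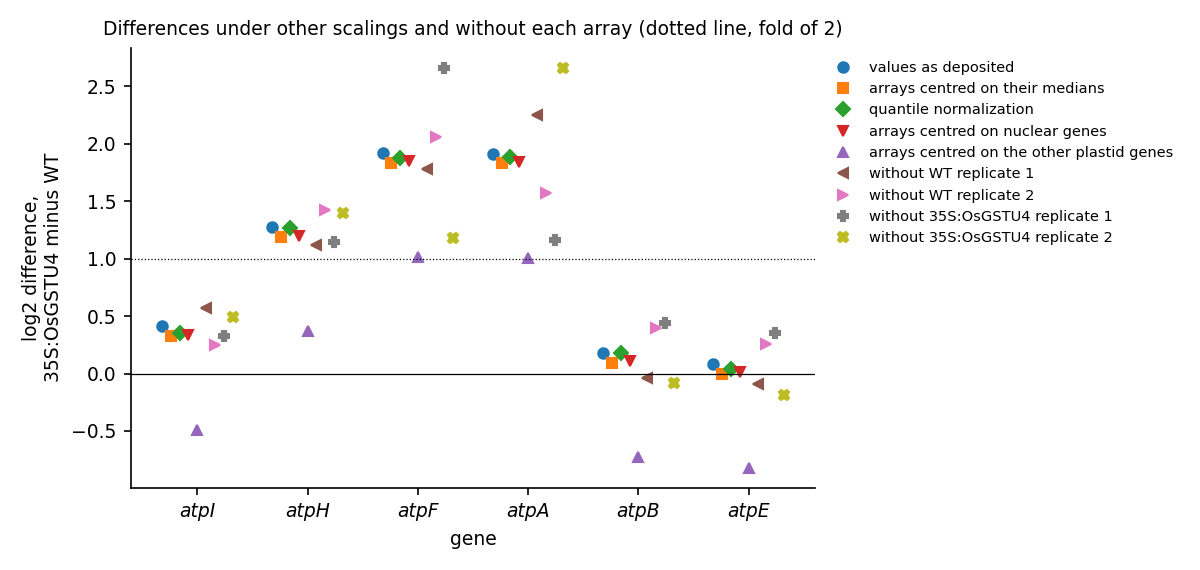
Log2 difference between arrays labelled 35S:OsGSTU4 and WT (vertical axis) of each ATP synthase gene (horizontal axis) as deposited, under 4 other scalings and without each array in turn, with 1 symbol per setting. Values of atpF and atpA spread from 1.01 to 2.66 and stay above the dotted line at a fold of 2, atpH falls below it only with arrays centred on the other plastid genes (0.37), atpI is negative in that setting alone (-0.49), and atpB and atpE lie on both sides of 0.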

How the data were processed

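The authors hybridized labelled RNA of 4 seedling samples to Affymetrix arrays, with the GeneChip 3′-IVT express kit, and deposited 1 log2 signal per probe set and array. Their processing notes name RMA without a version. The deposited log2 values lack the equal distributions RMA gives and have a per-array mean near 500 on the linear scale (499.8, trimmed at the 2nd and 98th percentile) with a floor at 0, as MAS5 scaling leaves them. Groups follow the sample titles. Of 22810 probe sets 64 controls were left out. The other 22746 were fitted without filter or block in limma 3.58.1 (R 4.3.3), with Benjamini-Hochberg adjustment over all of them. The analysis was tested on simulated data.

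Genes come from the platform annotation joined to the RefSeq gene table (TAIR10.1), 13436 probe sets by Entrez ID and 72 by symbol. Where a gene had more than 1 probe set, the one with the highest mean signal stood for it. No genome build goes with the values, so no coordinates are given, and sequences are not shown. The members, lists and tests were chosen with earlier results of these data known. Named genes are all members, the operon neighbours, the list members past the thresholds or else the 2 with the largest difference in each list, and the 5 nearest profiles. Other members of a list, the genes further from the operons, the genes of like signal and the tissue markers were named after their values were seen. Alternatives were 4 scalings, a signal filter, an intensity trend, the methods' t-test, a replicate block, all probe sets of a gene, an adjusted threshold and leaving out each array. Figures were drawn with matplotlib 3.10.9. The number of arrays limits the precision.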

Additional observations from a re-analysis of the deposited data

How the results depend on the processing

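Of the 6 genes, the 2 past the thresholds became 0 with arrays centred on the other plastid genes, 0 with an adjusted p under 0.05 as the threshold, 1 (atpH) with the methods' t-test, and 0 to 2 when 1 array was left out, 0 without WT replicate 1, 1 without WT replicate 2 or 35S:OsGSTU4 replicate 1, and 2 (atpH and atpA) without 35S:OsGSTU4 replicate 2. With arrays centred on the other plastid genes the median over the 6 genes turned to -0.063, atpI to -0.49, atpB to -0.73, atpE to -0.82, rps2 to -0.22, rpoC2 to -0.37 and ndhC to -0.74. With arrays centred on their medians atpE turned to -0.0014. Without single arrays atpB ran from -0.082 to 0.44, atpE from -0.19 to 0.35, ndhC from -0.0045 to 0.33 and the median over the 6 genes from 0.79 to 0.91. The gap between the operons ran from 0.93 to 1.57 without single arrays and was 1.23 after quantile normalization, with its sign kept. The other settings could not move it, so its value there is no check. The count of all probe sets past the thresholds, 542 higher and 532 lower, was 229 and 4596 with arrays centred on the other plastid genes, 49 and 47 above the median mean, 297 and 286 with an intensity trend, 239 and 240 with the methods' t-test, 0 and 0 at an adjusted p under 0.05, and 497 to 1161 and 654 to 849 without single arrays. The share of higher calls, 50.5% as deposited, was 4.75% with arrays centred on the other plastid genes. It was 44.9% with arrays centred on their medians and 46.0% with arrays centred on nuclear genes, and it also moved when single arrays were left out. The cause of these changes was not tested.

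Arrays with the same replicate number deviated together at a correlation of 0.05 across probe sets, which are not independent, and nothing in the labels ties them, so the number is not taken as a pairing. With the replicate block 3 of the 6 genes were past the thresholds, atpA joining at its difference of 1.91. The calls over all probe sets also rose in that setting, from 542 to 649 higher and from 532 to 652 lower. None of the 6 passed an adjusted p of 0.05 there. Taking all probe sets of a gene changed nothing, since each had 1. Without an array the lone one of its group is assumed to vary like the others.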
